A study of Homo sapiens with 18 samples.

Results

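The genes examined were 8 that carry cholesterol through the lysosome, between organelles and out of the cell, namely NPC1, NPC2, LIPA, STARD3, OSBP, SOAT1, ABCA1 and NR1H2. They were picked by gene symbol, through the RefSeq identifier that names each target, from the 20802 genes counted. All 8 had more than 100 reads summed over the libraries and were among the 10246 genes tested. The cells were RKO, an established human colorectal carcinoma line kept in medium with serum, and each culture received 30 nM of a single siRNA and was collected 72 h later. The siRNAs siCtrl#1 and siCtrl#2 have no target, siTsg101#1 and siTsg101#2 target TSG101, and siVps28#1 and siVps28#2 target VPS28. TSG101 and VPS28 encode core subunits of ESCRT-I, a complex that sorts ubiquitinated membrane proteins at endosomes. Each of the 6 groups had 3 biological replicates, which gave 18 libraries. The replicate number in the labels was taken as the batch, so that every batch holds 1 library of each siRNA. The depletion was transient and was done in this cell line alone. The study used siCtrl#1 as its reference, and the question asked of the 8 genes was how their transcripts differ from that reference when either subunit is depleted.

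Cholesterol esters delivered by lipoproteins are split in the lysosome by the acid lipase LIPA. The freed sterol is bound by NPC2 in the lysosomal lumen and handed to the membrane protein NPC1, which passes it out of the lumen; loss of either protein causes Niemann-Pick disease type C, in which lysosomes fill with cholesterol. STARD3 and OSBP move sterol across contact sites between organelles, SOAT1 esterifies it in the ER for storage in lipid droplets, ABCA1 exports it across the plasma membrane to apolipoproteins, and NR1H2 encodes LXRβ, a sterol-activated receptor of which ABCA1 is a classical target gene.

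Reads assigned to genes numbered from 2561790 to 7466916 in a library. The targeted transcripts were examined first. TSG101 had 8 to 34 reads in the 6 siTsg101 libraries and 301 to 960 in the other 12, and its log2 fold change against siCtrl#1 was -4.85 with siTsg101#1 and -5.11 with siTsg101#2. VPS28 had 12 to 45 reads in the 6 siVps28 libraries and 216 to 702 in the others, with log2 fold changes of -4.15 with siVps28#1 and -4.07 with siVps28#2. Each transcript was thus low in every library of its own siRNAs and in no other. This holds for RNA only. For protein, the study reports that depleting either subunit also strongly lowered the other. Of 8 epithelial markers, KRT18, CDX2, KRT8 and EPCAM were read in every library, while CDH1 had 0 reads and KRT19, KRT20 and VIL1 had at most 2 in any library. In the mean of the 4 on-target siRNAs EPCAM rose by 0.65 (adjusted p = 0.0393 from edgeR), as it did with siCtrl#2, by 1.02 (adjusted p = 0.0473), and KRT8 fell by 0.69 (adjusted p = 0.0129); their part in the results below was not tested. Of 8 markers of leukocytes, fibroblasts, endothelium, muscle and liver, 5 had 0 reads throughout, and the highest was COL1A1 with at most 11.

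Calls required a 1.5-fold change or more and an adjusted p below 0.05, both from edgeR's quasi-likelihood test with Benjamini-Hochberg adjustment over all genes tested. The TSG101 siRNAs gave 4 calls among the 8 genes (siTsg101#1) and 3 calls (siTsg101#2), the VPS28 siRNAs gave 4 (siVps28#1) and 2 (siVps28#2), and every call was upward. Among all genes, 21.8%, 17.0%, 8.63% and 13.3% were called in either direction by these siRNAs in that order, and 11.6%, 10.1%, 4.85% and 7.09% upward. In the mean of the 4 on-target siRNAs, NPC1, NPC2, ABCA1 and OSBP were called up, against 15.0% of all genes called and 8.40% called up. The median log2 fold change of the 8 genes in that mean was 0.56, and that of all genes tested was -0.0079. None of the 8 was called between siCtrl#2 and siCtrl#1, where 2.06% of all genes were. In that comparison 1 of the 8, STARD3, had an unadjusted p-value under 0.05, and DESeq2 called none either. NPC1 alone was called up with all 4 on-target siRNAs, as were 2.55% of all genes. The 4 comparisons share the siCtrl#1 libraries, so they are not independent of each other. In RNA from whole cultures, fewer cells that express a gene and less RNA per cell cannot be told apart.

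**Figure D1:**
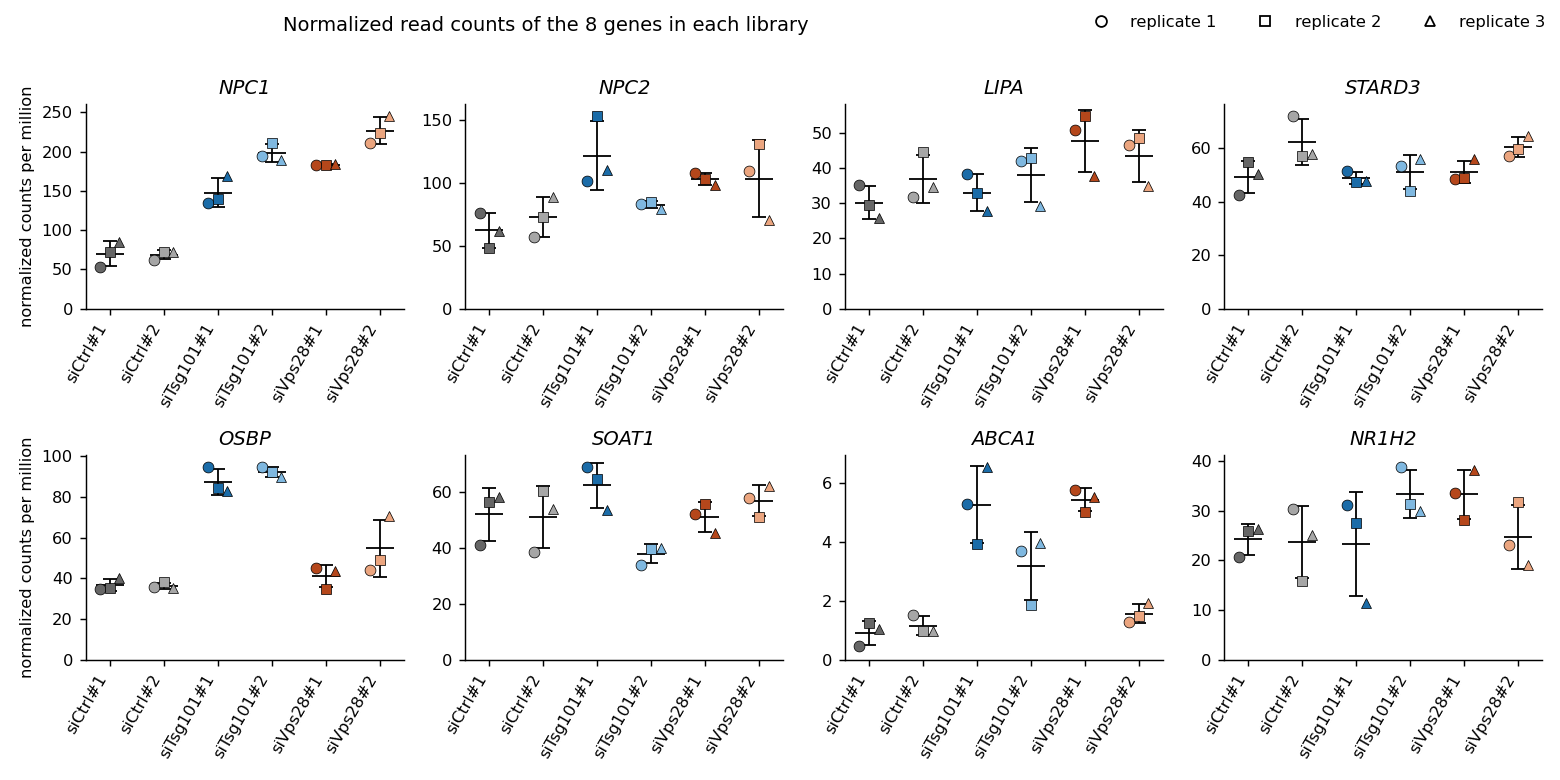
Normalized CPM (vertical axes, from 0) of the 8 genes in each of the 18 libraries, by siRNA group (horizontal axes). Circles, squares and triangles are replicates 1, 2 and 3, and the bars give the group mean ± SD (n = 3). The 12 NPC1 points of the on-target siRNAs all lie above the 6 nontargeting points, and the OSBP points of both siTsg101 groups lie above all other groups.

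NPC1 (NM_000271) was the gene most evenly raised. It lies on chromosome 18 of GRCh37 from 21086148 to 21166470 on the minus strand, and 619 bases of its exons overlap RMC1 on the opposite strand. Its normalized level was 52.7, 72.3 and 85.3 CPM (reads scaled to each library's effective total) in replicates 1, 2 and 3 of siCtrl#1 and 62.0, 71.9 and 72.0 with siCtrl#2. With siTsg101#1 it was 135, 139.7 and 168, and siTsg101#2 gave 194, 211 and 189. For siVps28#1 the level was 183, 182 and 184, and siVps28#2 gave 211, 224 and 245. All 12 depleted libraries were higher than all 6 nontargeting ones, and the groups do not overlap. The raw reads behind these levels ranged from 232 to 1411 per library. Against siCtrl#1, NPC1 was 2.11-fold higher with siTsg101#1 (log2 fold change 1.07, SE 0.16, adjusted p = 3.25e-05 from edgeR) and 2.82-fold higher with siTsg101#2 (1.49, SE 0.16, adjusted p = 7.01e-07 from edgeR). It was 2.61-fold higher with siVps28#1 (1.38, SE 0.16, adjusted p = 4.86e-06 from edgeR) and 3.23-fold higher with siVps28#2 (1.69, SE 0.16, adjusted p = 2.60e-07 from edgeR). The mean over the 4 siRNAs was 1.41 (SE 0.14, 95% interval 1.12 to 1.70). Within each replicate number, NPC1 was higher than in the siCtrl#1 library of that number in 12 of 12 pairs, which share the siCtrl#1 libraries. Its log2 ratios lay between 0.95 and 2.00. With siCtrl#2 it changed by -0.03 (95% interval -0.37 to 0.30). In the order of group means, siTsg101#1 came lowest of the depleted groups and siVps28#2 highest. The siTsg101#1 and siTsg101#2 libraries do not overlap, but their difference of -0.42 had an adjusted p of 0.105 from edgeR.

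The 250 bases before the NPC1 start, at chr18:21166471-21166720 of GRCh37 on the minus strand, are shown because this gene was called with every on-target siRNA. They were searched on both strands for the E-box CACGTG, the GC box GGGCGG, the CCAAT box CCAAT and the DR4-type element AGGTNANNNNNGGTCA, a spaced repeat of the kind LXR binds, and capitals mark the matches. No marked match overlaps another in the sequences printed here.

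NPC1 upstream: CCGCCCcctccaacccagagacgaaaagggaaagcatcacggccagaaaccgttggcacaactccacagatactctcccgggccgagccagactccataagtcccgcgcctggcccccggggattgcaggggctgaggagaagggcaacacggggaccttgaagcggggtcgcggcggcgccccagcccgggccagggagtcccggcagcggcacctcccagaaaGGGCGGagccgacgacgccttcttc

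This window holds GC boxes at positions -250 and -25, counted from -1 at the base before the start, and none of the other 3 motifs. Of 35116 windows of the same length before annotated starts, 42.639% hold a GC box, 32.008% a CCAAT box, 6.345% the E-box and 0.08% the DR4-type element. All 11 listed starts of the 8 genes were found in GRCh37 with their sequence unchanged. A match is a run of letters and was not tested for binding.

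NPC2 (NM_006432; chromosome 14, 74942895 to 74960880, minus strand) was raised less and less evenly than NPC1. Its level was 76.1, 48.3 and 62.0 CPM with siCtrl#1 and 56.6, 72.7 and 88.9 with siCtrl#2. With siTsg101#1 it was 102, 153 and 109.8, and siTsg101#2 gave 82.8, 85.1 and 79.5. For siVps28#1 the level was 107, 103 and 98.1, and siVps28#2 gave 109, 131 and 70.0. The siTsg101#1 and siVps28#1 libraries were above all 6 nontargeting libraries, whereas siTsg101#2 and replicate 3 of siVps28#2 lay within their range. NPC2 was called with siTsg101#1 (1.95-fold, log2 fold change 0.96, SE 0.21, adjusted p = 0.00185 from edgeR), siVps28#1 (1.65-fold, 0.72, SE 0.21, adjusted p = 0.0342 from edgeR) and siVps28#2 (1.66-fold, 0.73, SE 0.21, adjusted p = 0.0207 from edgeR). With siTsg101#2 its value was 0.40 (95% interval -0.03 to 0.84, adjusted p = 0.186 from edgeR). The siVps28 calls held against the mean of both nontargeting siRNAs but not against siCtrl#2 alone. Against siCtrl#2 the values were 0.49 with siVps28#1 (adjusted p = 0.221 from edgeR) and 0.50 with siVps28#2 (adjusted p = 0.143 from edgeR), and the mean of the 4 siRNAs, 0.70 against siCtrl#1 (adjusted p = 0.00512), was 0.48 (adjusted p = 0.0606). Replicate 2 of siCtrl#1 had the lowest level of all libraries, 48.3 CPM, and without it the mean was 0.56 (adjusted p = 0.0602 from edgeR). The siVps28#1 call was lost without siCtrl#1 replicate 2 or 3 or any siVps28#1 library, and that of siVps28#2 without siCtrl#1 replicate 2 or 3 or siVps28#2 replicate 1 or 2, with values of NPC2 from 0.53 to 0.75 and adjusted p-values from 0.0589 to 0.161. The exons share 103 bases with ISCA2 on the opposite strand and 72 with MIR4709 on the same strand, and 8.77% of the transcript is also found in MIR4709.

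LIPA (NM_001127605; chromosome 10, 90973326 to 91174314, minus strand), the lysosomal acid lipase, was called with siVps28#1 and with no other siRNA when all libraries were used. Its levels ranged from 25.9 to 35.2 CPM with siCtrl#1, 31.7 to 44.7 with siCtrl#2, 27.8 to 38.4 with siTsg101#1 and 29.1 to 43.1 with siTsg101#2. The siVps28#1 libraries had 50.8, 54.9 and 37.8 CPM, and siVps28#2 gave 46.7, 48.6 and 34.9. The siVps28#1 libraries were all above siCtrl#1 but overlapped siCtrl#2. LIPA was 1.59-fold higher with siVps28#1 (log2 fold change 0.67, SE 0.21, adjusted p = 0.0436 from edgeR), and this call was lost against siCtrl#2 (0.37, adjusted p = 0.376) and against the mean of both nontargeting siRNAs (0.52, adjusted p = 0.0689). It was also lost without any siCtrl#1 library, siVps28#1 replicate 1 or 2 or siTsg101#2 replicate 1, with LIPA values from 0.55 to 0.79 and adjusted p-values from 0.0509 to 0.166. Its values for siTsg101#1, siTsg101#2 and siVps28#2 were 0.12, 0.34 and 0.53, with adjusted p-values of 0.726, 0.251 and 0.0870 from edgeR. Without siVps28#2 replicate 3, LIPA was called with siVps28#2 as well (0.66, adjusted p = 0.0482 from edgeR). Within replicate numbers LIPA was higher than in siCtrl#1 in 12 of 12 pairs, which share the siCtrl#1 libraries. The log2 ratios lay between 0.10 and 0.90, and LIPA was also higher with siCtrl#2 in 2 of 3. The LIPA mean of the 4 on-target siRNAs was 0.41 (adjusted p = 0.0785 from edgeR) and was not called. The LIPA exons overlap IFIT2, IFIT3 and an unnamed gene on the opposite strand by 294 bases.

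**Figure D2:**
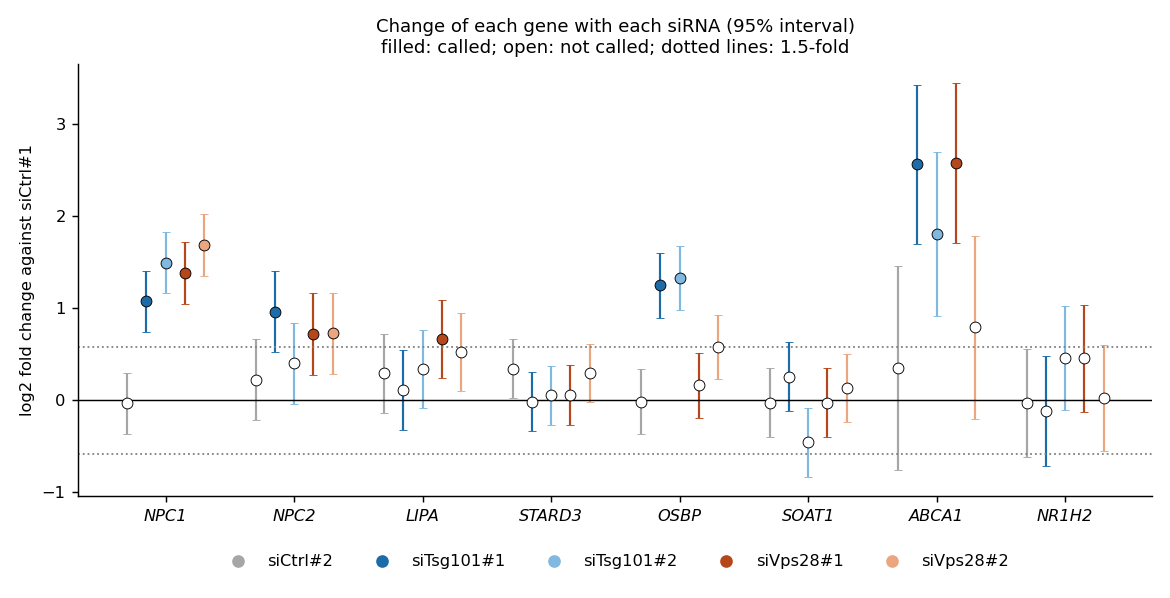
Log2 fold change against siCtrl#1 (vertical axis) of each gene (horizontal axis) with siCtrl#2 and the 4 on-target siRNAs, with 95% intervals from edgeR. Filled points were called, open points were not, and dotted lines mark 1.5-fold. NPC1 is filled with all 4 on-target siRNAs, OSBP with both siTsg101 siRNAs, and ABCA1 with all on-target siRNAs but siVps28#2.

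Of the sterol transfer proteins, OSBP changed and STARD3 did not pass the test. OSBP (NM_002556; chromosome 11, 59341871 to 59383247, minus strand) exchanges cholesterol for phosphatidylinositol 4-phosphate between the ER and the Golgi or lysosomes. Its level was 34.8, 35.1 and 39.9 CPM with siCtrl#1 and 35.8, 38.1 and 35.2 with siCtrl#2. With siTsg101#1 it was 94.7, 84.6 and 82.9, and siTsg101#2 gave 94.5, 92.4 and 89.6. For siVps28#1 the level was 45.0, 34.6 and 43.6, and siVps28#2 gave 44.3, 49.1 and 70.7. The 6 siTsg101 libraries were above all 12 others, the siVps28#1 libraries overlapped both controls, and the siVps28#2 libraries lay between, with replicate 3 well above the other siVps28#2 replicates.

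OSBP was 2.38-fold higher with siTsg101#1 (log2 fold change 1.25, SE 0.17, adjusted p = 1.01e-05 from edgeR) and 2.51-fold higher with siTsg101#2 (1.33, SE 0.17, adjusted p = 5.21e-06 from edgeR). With siVps28#1 its value was 0.16 (95% interval -0.19 to 0.52, adjusted p = 0.640 from edgeR). With siVps28#2 it was 0.58 (SE 0.17, adjusted p = 0.0215 from edgeR), just under the 1.5-fold minimum, which OSBP passed at 0.59 against siCtrl#2 and at 0.65 to 0.71 without siCtrl#1 replicate 3 or siVps28#2 replicate 1 or 2. Without siVps28#2 replicate 3, the highest library of that group, the OSBP value was 0.35 (adjusted p = 0.185 from edgeR). Tested directly, OSBP was 1.89-fold higher with both siTsg101 siRNAs than with both siVps28 siRNAs (log2 difference 0.92, SE 0.12, 95% interval 0.68 to 1.16, adjusted p = 7.54e-06 from edgeR). It was the only gene of the 8 called in that comparison, where 6.20% of all genes were called. Within replicate numbers 1, 2 and 3 the difference was 1.08, 1.10 and 0.63. The siTsg101#1 and siTsg101#2 libraries differed by -0.08 (95% interval -0.42 to 0.26). For the other 7 genes the difference between siTsg101 and siVps28 lay between -0.37 for LIPA and 0.50 for ABCA1, with adjusted p-values of 0.0995 or more.

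The window before the OSBP start, at chr11:59383248-59383497 of GRCh37 on the minus strand, is shown because this gene separated the TSG101 from the VPS28 siRNAs. Capitals mark matches to the same 4 motifs.

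OSBP upstream: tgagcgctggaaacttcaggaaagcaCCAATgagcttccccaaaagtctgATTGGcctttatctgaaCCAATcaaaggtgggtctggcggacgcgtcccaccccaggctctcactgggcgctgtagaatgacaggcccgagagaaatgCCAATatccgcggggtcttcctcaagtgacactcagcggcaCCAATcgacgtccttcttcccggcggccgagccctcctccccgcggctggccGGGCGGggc

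It holds 5 CCAAT boxes, at -224, -200, -183, -102 and -61, and 1 GC box at -9. Of all 35116 windows, 0.319% hold 5 or more CCAAT boxes. No other start of the 8 genes has more than 3. In the annotation, 118 bases of the OSBP exons overlap an unnamed gene on the opposite strand.

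STARD3 (NM_006804; chromosome 17, 37793343 to 37820454, plus strand) binds sterol on late endosomes and tethers them to the ER. Its levels lay between 42.7 and 72.1 CPM in all 18 libraries, and the highest of them was a siCtrl#2 library. Against siCtrl#1 the log2 fold changes were -0.01 and 0.06 for the TSG101 siRNAs and 0.06 and 0.30 for those against VPS28, with adjusted p-values of 0.216 or more from edgeR. The mean of the 4 siRNAs was 0.10 with a 95% interval from -0.16 to 0.36, which does not reach 1.5-fold. STARD3 was 0.34 higher with siCtrl#2 than with siCtrl#1 (adjusted p = 0.303 from edgeR), and against siCtrl#2 the mean of the 4 siRNAs was -0.24, so that its sign depended on the reference.

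SOAT1 (NM_003101; chromosome 1, 179262849 to 179327815, plus strand), the ER enzyme that esterifies cholesterol for storage, differed between the siRNAs against TSG101. Its level was 41.1, 56.6 and 58.2 CPM with siCtrl#1 and 38.6, 60.3 and 54.1 with siCtrl#2. It was 69.0, 64.9 and 53.4 with siTsg101#1 and 34.0, 39.6 and 40.1 with siTsg101#2. The siVps28 libraries ranged from 45.2 to 62.0. All 3 siTsg101#2 libraries lay below siCtrl#1 and below siTsg101#1, but they overlapped siCtrl#2. SOAT1 was 0.26 with siTsg101#1 (adjusted p = 0.323 from edgeR) and -0.46 with siTsg101#2 (adjusted p = 0.0755 from edgeR). With siTsg101#2 SOAT1 was lower than siCtrl#1 in 3 of 3 replicate numbers, and without siCtrl#1 replicate 1 it was called down (-0.60, adjusted p = 0.0366 from edgeR). The difference between them was 0.71 (1.64-fold, SE 0.18, 95% interval 0.34 to 1.09, adjusted p = 0.0156 from edgeR), in a comparison that called 6.94% of all genes. SOAT1 was the only gene of the 8 called there, and the call was lost without replicate 1 or 2 of siTsg101#1 or replicate 1 of siTsg101#2, where the difference was 0.64, 0.67 and 0.64 with adjusted p-values of 0.0707, 0.0501 and 0.0805. The mean over the 4 siRNAs was -0.02 (95% interval -0.32 to 0.27), and 3.22% of the transcript's sequence is shared with GNPNAT1.

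ABCA1 (NM_005502; chromosome 9, 107543287 to 107690436, minus strand), the exporter that loads cholesterol onto apolipoprotein A-I, had the largest fold changes of the 8 genes with every on-target siRNA except siVps28#2, and the fewest reads. It had 2, 4 and 6 reads with siCtrl#1 and 6, 4 and 5 with siCtrl#2. With siTsg101#1 there were 13, 15 and 47 reads, and siTsg101#2 gave 24, 12 and 24. For siVps28#1 the reads were 20, 21 and 24, and siVps28#2 gave 8, 9 and 11. Every library of siTsg101#1, siTsg101#2 and siVps28#1 had more reads than any nontargeting library, at levels of 1.87 to 6.56 CPM against 0.454 to 1.52. The siVps28#2 libraries, at 1.30 to 1.91 CPM, were above siCtrl#1 but overlapped siCtrl#2. The amplified reads carry no molecular identifiers, and with so few of them these folds are imprecise.

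ABCA1 was 5.92-fold higher with siTsg101#1 (log2 fold change 2.57, SE 0.42, 95% interval 1.70 to 3.43, adjusted p = 8.59e-05 from edgeR). It was 3.50-fold higher with siTsg101#2 (1.81, SE 0.43, 95% interval 0.92 to 2.70, adjusted p = 0.00445 from edgeR) and 5.96-fold higher with siVps28#1 (2.58, SE 0.42, 95% interval 1.71 to 3.44, adjusted p = 0.000281 from edgeR). With siVps28#2 its value was 0.79 (SE 0.48, 95% interval -0.20 to 1.79, adjusted p = 0.298 from edgeR). The siRNAs against VPS28 differed by 1.78 (3.44-fold, SE 0.36, adjusted p = 0.0241 from edgeR), and ABCA1 was the only gene of the 8 called in this comparison, which called 0.488% of all genes. This last call was lost without any of the 6 siVps28 libraries, where the difference stayed between 1.67 and 1.94 and the adjusted p-value lay between 0.0556 and 0.118. In replicate 1 the siCtrl#1 level rests on 2 reads.

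**Figure D3:**
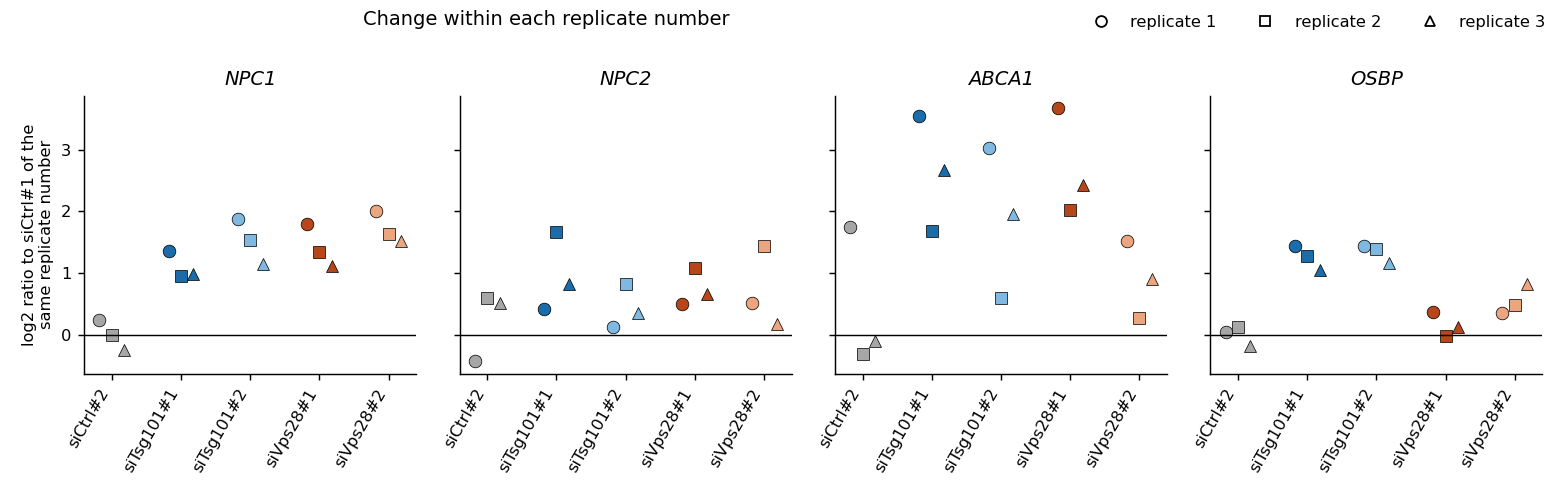
Log2 ratio of each library to the siCtrl#1 library with the same replicate number (vertical axis) for NPC1, NPC2, ABCA1 and OSBP, by siRNA (horizontal axes). Circles, squares and triangles are replicates 1, 2 and 3. All NPC1 ratios with on-target siRNAs lie between 0.95 and 2.00, and the ABCA1 ratios of replicate 1 rest on 2 reads in the reference library.

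The window before the ABCA1 start, at chr9:107690437-107690686 of GRCh37 on the minus strand, is shown because ABCA1 is a classical LXR target and NR1H2 encodes an LXR. Capitals mark matches to the same 4 motifs.

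ABCA1 upstream: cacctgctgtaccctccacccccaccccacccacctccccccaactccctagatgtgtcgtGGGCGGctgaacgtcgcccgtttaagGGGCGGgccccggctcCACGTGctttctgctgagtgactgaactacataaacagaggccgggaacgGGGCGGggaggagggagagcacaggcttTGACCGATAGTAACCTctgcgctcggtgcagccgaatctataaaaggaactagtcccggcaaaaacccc

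It holds GC boxes at -189, -163 and -97, an E-box at -147 and a DR4-type element at -69. None of the other starts of the 8 genes holds the E-box or the DR4-type element. The latter was found in 28 of the 35116 windows.

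NR1H2 (NM_007121; chromosome 19, 50832910 to 50886645, plus strand) was not called with any siRNA. Its lowest, median and highest levels were 20.7, 25.8 and 26.2 CPM with siCtrl#1 and 15.8, 25.0 and 30.2 with siCtrl#2. The siTsg101#1 values were 11.4, 27.6 and 31.0, and the siTsg101#2 values 30.0, 31.3 and 38.8. For siVps28#1 the levels were 28.2, 33.5 and 38.1, and for siVps28#2 19.1, 23.0 and 31.8. The siTsg101#2 and siVps28#1 libraries were above those of siCtrl#1, and replicate 3 of siTsg101#1 was the lowest of all libraries. The log2 fold changes were -0.12 and 0.46 for the TSG101 siRNAs and 0.46 and 0.02 for those against VPS28, and their adjusted p-values were 0.247 or more from edgeR. The 95% interval of the mean, -0.26 to 0.67, includes 0 and reaches past 1.5-fold. Its exons overlap NAPSA on the opposite strand by 1182 bases. NR1H3, which encodes the other LXR, had 7 reads in all libraries together and was not tested.

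Other genes of the same routes were read from lists written from general knowledge, and 55 of their 76 genes passed the count filter. In the mean of the 4 on-target siRNAs, 8 of the 55 were called up and 1 down, and their median log2 fold change was 0.11, against -0.0079 for all genes tested. The 9 calls are 16.4% of the 55, near the 15.0% of all genes called in either direction in this mean. Of the 9 calls, 8 were upward, against 861 of the 1534 calls among all genes. Of the genes tested, 8 of the 55 were called up, against 8.40% of all genes. The split depended on the reference: against siCtrl#2, and likewise against the mean of both nontargeting siRNAs, 5 of these genes were called up and 3 down. The shares of all genes called against these other references are not given here, so these counts have no background beside them. RAB7A, MCOLN1, STARD4, ABCA5 and OSBPL10 were called in the same direction against all 3 references. The further genes called down were OSBPL7 against both other references, at -0.88 and -0.71, NCEH1 against siCtrl#2, at -0.85, and ABCA7 against the mean of both, at -0.69. Of the lysosomal partners of egress, 11 of 12 were tested and 3 were called up, with a median of 0.39. RAB7A, the GTPase of late endosomes, was called with all 4 siRNAs, with a mean log2 fold change of 0.77 (adjusted p = 0.000136 from edgeR). SMPD1, the acid sphingomyelinase, had a mean of 1.01 (adjusted p = 0.00735 from edgeR), but its value with siCtrl#2 was 0.83 (adjusted p = 0.216 from edgeR), and against siCtrl#2 the SMPD1 mean was 0.18 (adjusted p = 0.663 from edgeR). MCOLN1, the lysosomal calcium channel, had a mean of 0.64 (adjusted p = 0.00564 from edgeR). It was called with 2 of the 4 siRNAs, and its call in the mean was lost without siCtrl#1 replicate 2.

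Of the contact-site genes, 20 of 24 were tested, and 4 were called up and 1 down, with a median of 0.14. STARD4, a soluble sterol carrier, rose by 1.07 (adjusted p = 2.02e-05 from edgeR) and was called with all 4 siRNAs. OSBPL10, a relative of OSBP, fell by 1.29 (adjusted p = 4.09e-05 from edgeR), again with all 4. STARD3NL, the STARD3 paralog without a sterol-binding domain, had a mean of 0.90 (adjusted p = 0.000137 from edgeR) but was 0.86 higher with siCtrl#2 as well (adjusted p = 0.0105 from edgeR), so that its rise was not confined to the on-target siRNAs. PLEKHA3 and, as the remaining called gene, SACM1L, which bind and remove phosphatidylinositol 4-phosphate, had means of 0.68 and 0.59 (adjusted p = 0.0160 and 0.00172 from edgeR), and against siCtrl#2 both lost the call. PLEKHA3 was higher with the siTsg101 than with the siVps28 siRNAs, by 0.60 (adjusted p = 0.0204 from edgeR), from values of 1.13 and 0.83 against 0.15 and 0.61. It was the only tested gene of this list called in that comparison, which called 6.20% of all genes. SACM1L differed the other way there, by -0.32 (adjusted p = 0.0614 from edgeR), and was not called.

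None of the 6 tested genes of ester storage and hydrolysis was called against siCtrl#1, and their median was -0.26; SOAT2, the other sterol acyltransferase, had 4 reads in all libraries together. Of the efflux transporters and acceptors, 6 of 11 were tested and ABCA5 alone was called, with a mean of 1.68 (adjusted p = 0.00190 from edgeR) from 4 to 53 reads per library, and 318 bases of its exons are shared with ABCA10 on the same strand. The median of the list was -0.28. ABCG1, the usual partner of ABCA1 in efflux, had 3 reads in all libraries together, APOE 25 and APOA1 3. Of the LXR target genes, 9 of 16 were tested, with a median of 0.08. ABCA1 was the only gene of them called against siCtrl#1 when all libraries and the count filter were used. The highest uncalled LXR target was PLTP, at 0.83 (adjusted p = 0.0938 from edgeR). Without the count filter PLTP was called (0.83, adjusted p = 0.0494 from edgeR), and likewise without siCtrl#1 replicate 1. SREBF1 was at 0.36 (adjusted p = 0.130 from edgeR) and was called against siCtrl#2, at 0.69 (adjusted p = 0.00810 from edgeR). SCD was at 0.22 (adjusted p = 0.266 from edgeR) and MYLIP at 0.01 (adjusted p = 0.983 from edgeR). No gene was called among the 4 of 6 LXR partners and co-repressors tested, whose median was -0.10, and HSD3B7, the only oxysterol enzyme tested of 6, was at 0.02.

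**Figure D4:**
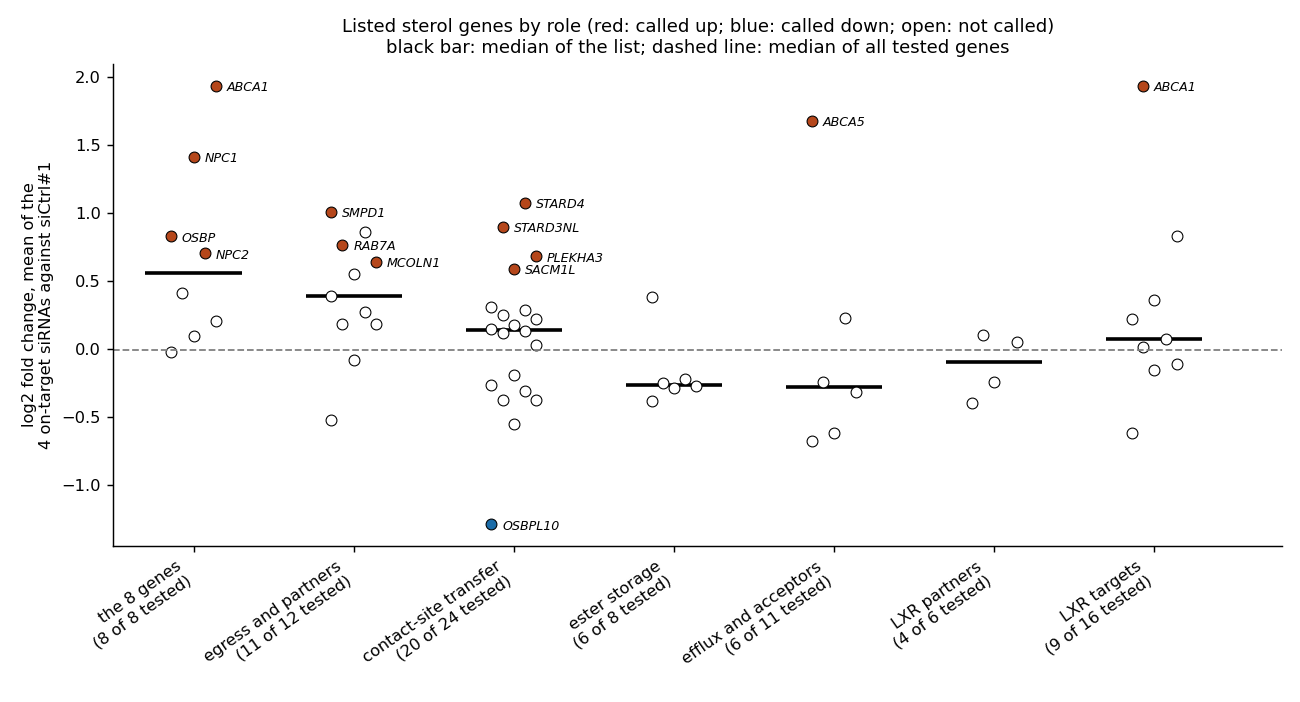
Log2 fold change from siCtrl#1, averaged over the 4 on-target siRNAs (vertical axis) of each tested gene, by list (horizontal axis; the oxysterol list, with 1 tested gene, is left out). Red points were called up, blue points were called down, open points were not called, black bars are list medians, and the dashed line is the median of all tested genes at -0.0079. The egress partners have a median of 0.39, and ABCA1 is the only LXR target drawn as called.

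The genes whose levels followed each of the 8 most closely over the 18 libraries were read as a description, on log2 CPM, from libraries that share siRNA groups and batches. NPC1 was followed most closely by HMGCS1 and MSMO1, enzymes of cholesterol synthesis, and by the integrin ITGAX, with Pearson's r of 0.945, 0.929 and 0.932. OSBP was followed by RER1, EIF4B and OCRL, at 0.970, 0.970 and 0.961. For ABCA1 the nearest were ZNF706, ATP13A3 and LRRC8E, at 0.918, 0.906 and 0.864. NPC2 had STRN, MAPKAPK2 and GID4 at 0.945, 0.891 and 0.885, and LIPA had WDR26, ATP6V1E1 and ARRDC3 at 0.834, 0.826 and 0.777. SOAT1 had PHAX, LYN and SENP2 at 0.892, 0.880 and 0.856, STARD3 had IQCJ, SHC1 and PIP4K2B at 0.840, 0.781 and 0.777, and NR1H2 had DUSP12 and SYF2 at 0.734 and 0.717. Among the 8 genes themselves the highest r was 0.61, between NPC1 and ABCA1, and the lowest -0.38, between SOAT1 and NR1H2.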

How the data were processed

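RNA from 18 cultures of RKO cells, 3 for each of 6 siRNAs, was measured by amplicon sequencing. The authors amplified targeted stretches of transcripts with the Ion AmpliSeq human transcriptome panel, read them on an Ion Proton and mapped them to hg19 transcripts of that panel before counting with HTSeq 0.6.0; their own tests used DESeq2 1.18.1. The deposited values are raw read counts per target, whole numbers without normalization. The strand setting of the counting is not given in the sources used here, so that reads of overlapping genes on opposite strands cannot be told apart, and amplicon coordinates were not used here. Because each gene is read through its own amplicon, levels were not compared between genes. Reads without a gene (48.23% to 49.07% per library with no feature, 4.71% to 5.68% of low quality) and the 10 spike-in targets were left out, which left 45.4% to 46.68% of the reads.

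Of the 20802 targets, 20228 were matched to a symbol through a RefSeq gene table. Genes with more than 100 summed counts were kept and 386 noncoding ones left out. Counts were scaled by TMM. All remaining genes were tested with edgeR 4.0.16 (quasi-likelihood test, 6 groups in 1 fit, Benjamini-Hochberg adjustment) under R 4.3.3. The fit had first been tried on simulated counts with the same spread for every gene and no batch effect. That trial therefore does not measure how the fit behaves on these data. The p-values measure the spread between replicates, estimated over all 6 groups in 1 fit, so that libraries outside a comparison also affect them. The replicate number in the labels was taken as a batch, which pairs the libraries. Deviations from the group means had a mean correlation of 0.15 over 45 pairs of libraries with the same number and -0.07 over 90 pairs with different numbers; the main fit has no block. Alternatives were DESeq2 1.42.0, RLE scaling, other count filters, noncoding genes kept, another reference (siCtrl#2, or both nontargeting siRNAs), a replicate block, only the compared groups in the fit, no fold minimum, and each library left out. The genes named are the 8, TSG101 and VPS28, at most 4 called genes of each list (those called with all 4 siRNAs first) and up to 3 of the genes most correlated with each of the 8; SACM1L, markers, uncalled list genes and untested ones were named after their values were seen. The genes and lists were chosen with earlier results of these data known. Some listed and correlated genes are not reported here. Upstream sequences are from RefSeq (GRCh38.p14) and were placed in GRCh37 by exact match.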

Additional observations from a re-analysis of the deposited data

Results flagged for a closer look

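Of the 8 genes, OSBP, SOAT1 and ABCA1 were each called in a different comparison between siRNAs. These comparisons called 6.20%, 6.94% and 0.488% of all genes, in that order. OSBP was 0.92 higher on the log2 scale with both siTsg101 siRNAs than with both siVps28 siRNAs, and the call held in all 25 alternatives tried. SOAT1 was 0.71 higher with siTsg101#1 than with siTsg101#2, although both target TSG101. ABCA1 was 1.78 higher with siVps28#1 than with siVps28#2, although both target VPS28, whose own log2 fold changes were -4.15 and -4.07. The SOAT1 and ABCA1 differences lost their call when single libraries were left out, as given below. Why these siRNAs differ was not tested. Groups of 3 libraries were not examined for outlying samples.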

How the results depend on the processing

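Over 72 values of single genes, 1871 alternative values were computed. Of these, 1788 kept their direction and their side of the threshold, 30 lost the call, 6 gained it and 47 changed sign. None of the 47 belonged to a called value, and the largest in size was 0.29. The cause of each change was not tested. NPC1 was called with each of the 4 on-target siRNAs in all 27 alternatives.

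The number of the 8 genes called with siVps28#1 fell from 4 to 2 against siCtrl#2, and ranged from 2 to 4 as single libraries were left out. It was 2 without siCtrl#1 replicate 2 or 3 or siVps28#1 replicate 1 or 2, the calls of NPC2 and LIPA being lost. The shares of all genes called in these alternatives are not given here. With siVps28#2 the range was 1 to 3, with 1 without siCtrl#1 replicate 2, for siTsg101#1 against siTsg101#2 it was 0 to 1, and for siVps28#1 against siVps28#2 it was 0 to 1. The last count was also 0 when at least 10 counts were required in every library, since ABCA1 was then not tested. With the replicate number as a block, the NPC1 mean was 1.42 (adjusted p = 4.29e-08 from edgeR), and no call of the 8 genes changed. The difference of NPC2 between siVps28#1 and siVps28#2 changed sign to 0.0045. For LIPA the block gave 0.40 in the mean, 0.51 with siVps28#2 and -0.36 for both siTsg101 against both siVps28. Their adjusted p-values from edgeR fell to 0.0244, 0.0256 and 0.0298, so that only the 1.5-fold minimum kept them uncalled.

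Against siCtrl#2, LIPA was at -0.18 with siTsg101#1 and the SOAT1 mean of the 4 siRNAs at 0.0020. STARD3 was at -0.29 with siTsg101#2, -0.28 with siVps28#1, -0.045 with siVps28#2 and -0.24 in the mean. Against the mean of both nontargeting siRNAs, LIPA was at -0.032 with siTsg101#1, and STARD3 was at -0.11 with siTsg101#2, -0.11 with siVps28#1 and -0.071 in the mean.

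With single libraries left out, the uncalled values that changed sign had these ranges. For siCtrl#2 against siCtrl#1 they were -0.20 to 0.14 for NPC1, -0.17 to 0.14 for SOAT1, -0.049 to 0.058 for OSBP and -0.24 to 0.18 for NR1H2. For siTsg101#1 they were -0.11 to 0.065 for STARD3 and -0.36 to 0.27 for NR1H2, and for siTsg101#2 they were -0.037 to 0.17 for STARD3. For siVps28#1 they were -0.17 to 0.068 for SOAT1 and -0.034 to 0.14 for STARD3. For siVps28#2 they were -0.013 to 0.23 for SOAT1 and -0.20 to 0.18 for NR1H2. The SOAT1 mean of the 4 siRNAs ranged from -0.17 to 0.071. For both siTsg101 against both siVps28 they were -0.15 to 0.064 for NPC2 and -0.19 to 0.13 for NR1H2, for siVps28#1 against siVps28#2 they were -0.22 to 0.20 for NPC2, and for siTsg101#1 against siTsg101#2 they were -0.18 to 0.0033 for STARD3. ABCA1 was limited by depth, with 2 to 6 reads in each siCtrl#1 library.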
